A study of Mus musculus with 4 samples.

Results

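Serpins form a family of structurally related proteins, most of which inhibit proteases. An inhibitory serpin offers an exposed reactive loop as bait, and after cleavage it traps the protease in a covalent complex. The clades differ in where they act. Clade A holds secreted inhibitors and hormone carriers of the antitrypsin type, made mainly in liver, whereas clade B proteins lack a classical signal peptide, stay largely inside the cell and guard it against proteases of granules and lysosomes. The smaller clades hold regulators of coagulation, fibrinolysis and complement, and a collagen chaperone that inhibits no protease.

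The family was taken from the platform annotation as all genes whose symbol is Serpin followed by a clade letter from a to i and a number, with or without a final letter. This gave 47 members among 19938 genes that have a probe set with 1 gene symbol, and each member had 1 such probe set. Clade A contributed 14 members, clade B 24, clades F and I 2 each, and clades C, D, E, G and H 1 each. The family was picked because Serpinb1a was already known to be higher with Smarcb1 on these arrays. The Smarcb1 change of Serpinb1a is thus a description, and its limma values are no test of it. RefSeq lists 64 mouse genes with such symbols, of which 5 lie on shared probe sets alone and 12 are not analysed here.

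The study put Smarcb1, a constant member of the SWI/SNF complexes that remodel chromatin, back into tumour cells that lack it, and asked which genes respond early. Lines 365 and 167 are cancer cell lines from Smarcb1-deficient soft tissue tumours of Smarcb1-heterozygous, p53-null mice on a C57BL6/SV129J background. The pMIG retrovirus brought in Smarcb1, or nothing in the controls, and total RNA was taken 3 days later, with 1 array per line and vector and 4 arrays in all. All cells, the empty-vector controls included, lack p53 and their own functional Smarcb1, each line stands for 1 tumour, and the sources used here do not say whether infected cells were sorted. Values are RMA signals on the log2 scale, so a difference of 1 is 2-fold, and signals of different probe sets are not compared as amounts of RNA.

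Smarcb1 had signals of 9.61 in line 365 and 7.83 in line 167 with the Smarcb1 virus, against 6.01 and 4.61 with the empty virus, so the vector labels match the arrays. All 8 mesenchymal markers lay above log2 4.27 on every array. So did 5 of 6 epithelial and 3 of 5 skeletal muscle markers, so passing this level does not tell these cell types apart. That level is the 30th percentile of mean signal, below which genes were not tested. Of 10 leukocyte markers, 6 lay below it on every array, among them Ptprc, Adgre1, Itgam and Lyz2, and Csf1r, Cd68 and Cd53 lay above it on every array. In such cell populations a smaller number of cells that carry a transcript and a lower amount per cell cannot be told apart.

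Of the 47 members, 13 had a mean signal past the level of 4.27 and were tested, a share of 27.7% against 70% of all named genes. Clade B held 6 of them (Serpinb1a, Serpinb6a, Serpinb6b, Serpinb8, Serpinb9 and Serpinb9b) and clade A 0. The other 7 were Serpind1, Serpine3, Serpinf1, Serpinf2, Serping1, Serpinh1 and Serpini1. Serpinb1a passed through its Smarcb1 arrays alone, Serpinb6b through its line 365 arrays alone and Serpinb8 through its Smarcb1 array of line 167 alone, and Serping1 would not have passed without that array either, so the filter favours a difference in them. On every array, 31 of the 47 members lay below the level.

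**Figure D1:**
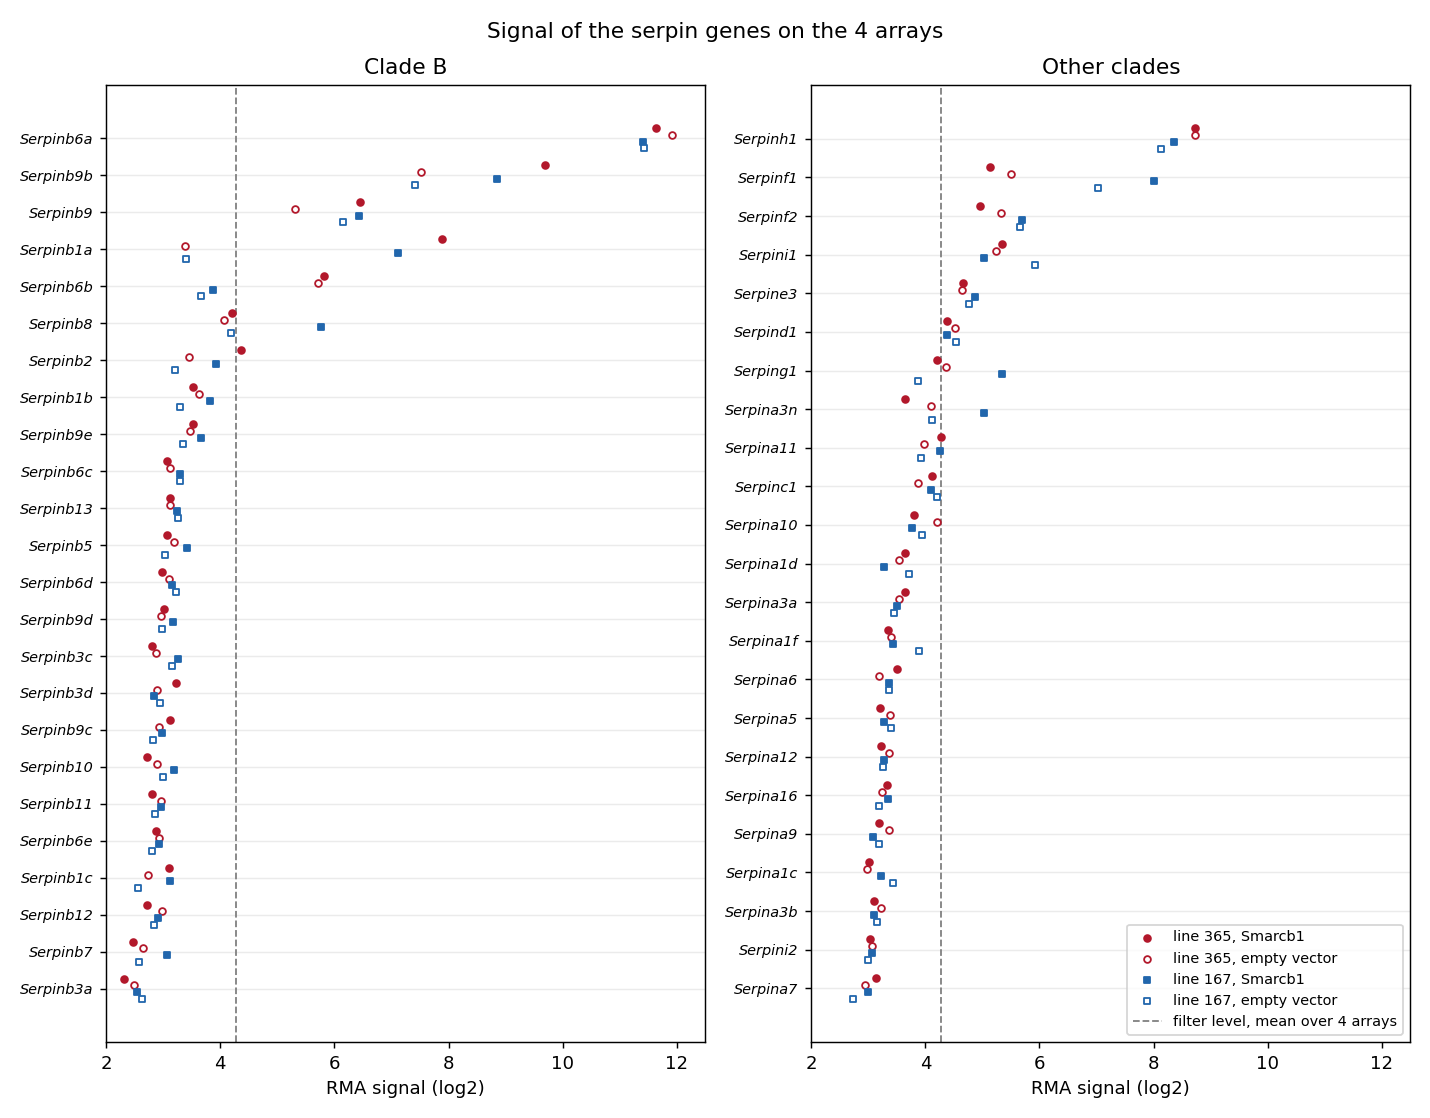
RMA signal (log2) of the 47 serpin genes, clade B on the left and the other clades on the right, with rows ordered by mean signal. Filled symbols are Smarcb1 arrays, open symbols empty-vector arrays, circles line 365 and squares line 167, and the dashed line marks the filter level of 4.27. Serpinb1a lies at 7.89 and 7.11 with Smarcb1, against 3.39 in both empty-vector arrays.

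Several tested members are neighbours. In the gene order of the RefSeq table (GRCm38.p6), 16 serpin genes follow each other on chromosome 13 without another protein-coding gene between them, starting with Serpinb1a and ending with Serpinb6a. Of these, 13 are members, 5 of which were tested (Serpinb1a, Serpinb6b, Serpinb9, Serpinb9b and Serpinb6a). Over all named genes 70% were tested, a larger share. Both members that were at least 2-fold higher with Smarcb1 in both lines, Serpinb1a and Serpinb9b, belong to this block. The family was picked on Serpinb1a, so nothing is read from their shared place. Without Serpinb1a, 1 of 46 members (2.17%) was so, against 0.933% of all named genes. A run of 12 clade B genes on chromosome 1 held 11 members and 1 tested gene, Serpinb8. A run of 23 clade A genes on chromosome 12 held 13 members, and 0 were tested.

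Start regions are shown for some members named in the results, among them the close relatives Serpinb9b and Serpinb9. RefSeq promoter sequences (GRCm38.p6, 250 bases before to 50 after the start) were at hand for 41 of the 47 members. Serpinb1a had none there. Serpinb9b (chr13:33027164-33027463, plus strand) and its close relative Serpinb9 (chr13:33004291-33004590, plus strand) are shown because both had higher signals with Smarcb1, by unequal amounts. Serpinb6b (chr13:32965011-32965310, plus strand) and Serpinf1 (chr11:75422574-75422873, minus strand) are shown because they differed between the lines. Capitals mark the longest stretch of 13 bases shared by Serpinb9b and Serpinb9, and the motif matches in Serpinb6b and Serpinf1.
Serpinb9b: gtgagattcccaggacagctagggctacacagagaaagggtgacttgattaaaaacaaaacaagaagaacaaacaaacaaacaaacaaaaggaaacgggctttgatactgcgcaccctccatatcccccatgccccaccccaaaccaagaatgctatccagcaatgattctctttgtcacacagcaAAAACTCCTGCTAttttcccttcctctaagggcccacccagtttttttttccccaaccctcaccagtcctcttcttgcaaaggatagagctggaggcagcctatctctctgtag
Serpinb9: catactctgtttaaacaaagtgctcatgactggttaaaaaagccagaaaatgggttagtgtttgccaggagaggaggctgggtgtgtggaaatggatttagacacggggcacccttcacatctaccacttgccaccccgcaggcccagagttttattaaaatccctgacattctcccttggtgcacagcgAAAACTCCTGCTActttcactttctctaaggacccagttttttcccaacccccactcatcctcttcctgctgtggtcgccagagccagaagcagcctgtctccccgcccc
Serpinb6b: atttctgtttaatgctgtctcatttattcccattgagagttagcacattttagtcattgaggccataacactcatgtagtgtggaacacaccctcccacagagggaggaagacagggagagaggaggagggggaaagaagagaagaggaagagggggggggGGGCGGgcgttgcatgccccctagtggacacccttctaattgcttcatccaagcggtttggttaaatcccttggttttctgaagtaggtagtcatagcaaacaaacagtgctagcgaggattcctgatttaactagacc
Serpinf1: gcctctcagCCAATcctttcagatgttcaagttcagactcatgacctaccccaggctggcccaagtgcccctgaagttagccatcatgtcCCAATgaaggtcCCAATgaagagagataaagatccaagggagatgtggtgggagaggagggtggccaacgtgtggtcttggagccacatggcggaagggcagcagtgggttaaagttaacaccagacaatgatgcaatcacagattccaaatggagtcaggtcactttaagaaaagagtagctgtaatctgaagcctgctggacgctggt

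In a global alignment, the windows of Serpinb9b and Serpinb9 were identical in 57.4% of 324 columns. The windows of Serpinb9b and Serpinb6b, which lie in the same block, matched in 41.6%. Serpinb9 and Serpinb6b, also both in the block, matched in 43.6%. With Serpinf1, on another chromosome, Serpinb9b matched in 42.2%, Serpinb6b in 49.5% and Serpinb9 in 41.2%. Apart from the pair of Serpinb9b and Serpinb9, the values within the block thus lay in the range of those with Serpinf1. The shared stretch begins 64 bases before the start in Serpinb9b and 60 bases before it in Serpinb9. The motifs searched on both strands were the TATA box (TATAAA), the CCAAT box (CCAAT), the GC box (GGGCGG) and the AP-1 site (TGANTCA). Serpinb9b had 0 matches, Serpinb9 had 1 GC box beyond the start (not in capitals), Serpinb6b had 1 GC box beginning 89 bases before the start, and Serpinf1 had 3 CCAAT boxes. A match is a string of letters and not a shown binding site.

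Over all 32851 promoters of this length 13.6% hold the TATA box, 37.4% the CCAAT box, 35.7% the GC box and 7.81% the AP-1 site. Over the 49 serpin promoters, some of which belong to the same gene or to recent copies, the shares were 30.6%, 30.6%, 14.3% and 20.4% in the same order. AP-1 letters stood in promoters of 9 members, and 7 of these lie in the chromosome 1 run (Serpinb2, Serpinb5, Serpinb7, Serpinb8, Serpinb10, Serpinb11 and Serpinb12). This motif was singled out after the counts were seen.

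With Smarcb1, the largest increase of the family in each line was that of Serpinb1a, on which the family was picked. The next largest were those of Serpinb9b in line 365 (log2 2.17) and Serpinb8 in line 167 (log2 1.57), also of clade B. The median clade B member changed by only -0.02 in line 365 and 0.19 in line 167. Serpinb1a, which inhibits the neutrophil proteases elastase, cathepsin G and proteinase 3, had signals of 7.89 in line 365 and 7.11 in line 167 with Smarcb1, against 3.39 and 3.39 with empty vector. Both Smarcb1 arrays lay far above both empty-vector arrays. The change was 22.6-fold in line 365 and 13.2-fold in line 167, and its mean ranked 4 among 13956 tested genes. Both controls lie below the level of 4.27, so the size of the fold is uncertain. The empty-vector arrays of the lines differed by -0.01 (365 minus 167) and the Smarcb1 arrays by 0.77.

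Leukocytes are a rich source of Serpinb1a. With Smarcb1, the log2 signals of the 10 leukocyte markers summed to 47.3 in line 365 and 45.2 in line 167. With empty vector the sums were 46.2 and 45.6. Such a sum is not an amount of RNA, and 6 of the 10 markers lay below 4.27 on every array. Cd53, a leukocyte membrane protein gene, was at 6.97 on the line 365 Smarcb1 array and at 4.35 on that of line 167, against 4.76 and 4.68 with empty vector. The macrophage marker Cd68 ran the other way, at 8.18 and 8.69 with Smarcb1 against 9.95 and 9.32 with empty vector. The part of these markers in the Serpinb1a change was not tested. The genes of these target proteases stayed at or below 4.76 on all 4 arrays, which is the highest signal of Prtn3, with at most 4.54 for Elane and 3.78 for Ctsg.

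The direct paralogs of Serpinb1a were dim. Serpinb1b had 3.52 and 3.83 with Smarcb1 in lines 365 and 167, against 3.62 and 3.30 with empty vector. Serpinb1c, the next gene in the block, had 3.10 and 3.13 with Smarcb1, against 2.74 and 2.56 with empty vector. All 8 signals lie below 4.27, and the sources used here do not say whether probes of one copy also pick up transcripts of another.

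Serpinb9b, a mouse paralog of the granzyme B inhibitor Serpinb9, had signals of 9.69 in line 365 and 8.85 in line 167 with Smarcb1, against 7.52 and 7.41 with empty vector. Both Smarcb1 arrays were higher than both controls, and all 4 lay above the filter level. The change was 4.49-fold in line 365 and 2.72-fold in line 167. The mean change of log2 1.81 ± 0.23 (moderated SE, 2 lines) did not pass (limma adjusted p = 0.0926). It passed when only genes in the upper 50 percent of mean signal were tested (limma adjusted p = 0.0383). In the other alternatives it did not pass, with limma adjusted p between 0.0575 and 0.116, and higher with the cell line left out. It ranked 116 among the tested genes.

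Serpinb9 itself had 6.44 in line 365 and 6.43 in line 167 with Smarcb1, against 5.31 and 6.16 with empty vector. The Smarcb1 arrays nearly coincide and the controls do not, so the change was 2.20-fold in line 365 and 1.21-fold in line 167 (mean log2 0.70 ± 0.27, limma adjusted p = 0.436). Serpinb6a, whose human form inhibits trypsin-like proteases and cathepsin G, gave 11.63 and 11.41 with Smarcb1, against 11.92 and 11.43 with empty vector. Its mean change was -0.15 ± 0.11 (limma adjusted p = 0.637). Its relative Serpinb6b changed by 0.09 in line 365 and 0.22 in line 167 (limma adjusted p = 0.725).

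Serpinb8, Serping1 and Serpini1 had a larger change in line 167 than in line 365, and all members named in this paragraph were chosen after their values were seen. Serpinb8, whose human form inhibits furin, had 4.21 in line 365 and 5.76 in line 167 with Smarcb1, against 4.06 and 4.19 with empty vector. Serping1, the complement C1 inhibitor, had 4.20 and 5.35 with Smarcb1, against 4.37 and 3.87 with empty vector. The line 167 Smarcb1 array stands above the other 3 arrays for both genes, with changes of 2.97-fold for Serpinb8 and 2.78-fold for Serping1 in that line, over controls below 4.27, so the sizes of these folds are uncertain. Serpini1, the neuronal inhibitor of tissue plasminogen activator, had 5.35 and 5.03 with Smarcb1, against 5.24 and 5.93 with empty vector. None of these 3 passed (limma adjusted p = 0.458 for Serpinb8, 0.585 for Serping1 and 0.642 for Serpini1). Serpinb2, which inhibits urokinase, was below the filter and was not tested. It had 4.36 and 3.92 with Smarcb1, against 3.45 and 3.21 with empty vector, so its change was of similar size in both lines (0.91 in line 365 and 0.71 in line 167).

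Serpinh1, the procollagen chaperone, had 8.72 in line 365 and 8.36 in line 167 with Smarcb1, against 8.72 and 8.13 with empty vector, a mean change of 0.12 ± 0.16 (limma adjusted p = 0.815). Serpinf1, a secreted non-inhibitory serpin that restrains blood vessel growth, changed by -0.38 in line 365 and 0.99 in line 167 (limma adjusted p = 0.782). Serpinf2, the main plasmin inhibitor of blood, changed by -0.36 and 0.04. Serpind1, a thrombin inhibitor that heparin activates, changed by -0.14 in both lines, and Serpine3 by 0.02 and 0.10. Adjusted p was 0.729 or higher for these 3.

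**Figure D2:**
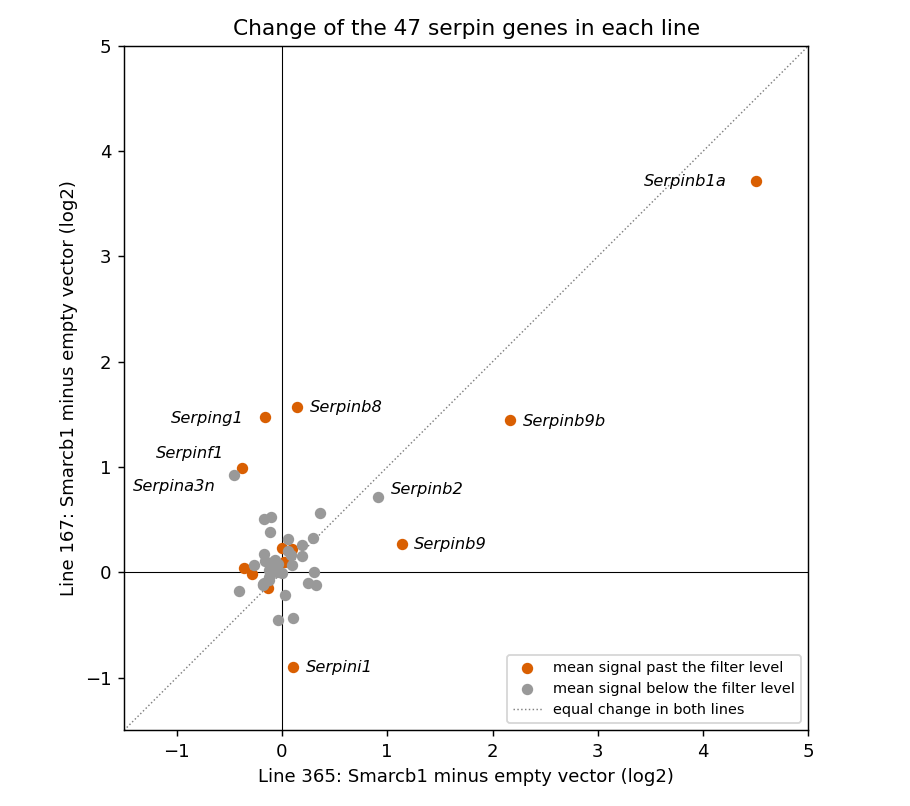
Smarcb1 minus empty vector (log2) in line 365 on the horizontal axis and in line 167 on the vertical axis, 1 point per serpin gene. Orange points have a mean signal past the filter level, grey points do not, and the dotted line marks equal change. Serpinb1a (4.50 and 3.72) and Serpinb9b (2.17 and 1.44) lie away from the cluster around 0 in both lines.

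Over all 47 members, 3 were at least 2-fold higher in line 365, against 2.04% of all named genes, and 4 in line 167, against 2.53%. Without Serpinb1a, on which the family was picked, these counts were 2 of 46 (4.35%) and 3 of 46 (6.52%). Serpinb1a and Serpinb9b were so in both lines, or 4.26% of members, against 0.933% of all named genes, and without Serpinb1a the share was 1 of 46 (2.17%). At least 2-fold lower were 0 members in either line, against 0.843% of named genes in line 365, 1.08% in line 167 and 0.13% in both. In the limma fit 1 of 13 tested members, Serpinb1a, was past an adjusted p of 0.05 as higher, where 0.0645% of tested genes were, and nothing is read from this since the family was picked on it. Without the intensity trend its adjusted p was 0.0547, and with vector as the sole term it was 0.541. Lower were 0 members, against 0 of all 13956 genes, and at an unadjusted p below 0.05 limma gave 2 higher members (Serpinb1a and Serpinb9b), with 5.88% of tested genes higher, and 0 lower, with 5.68% lower. Without Serpinb1a the count of higher members was 1 of 12 (8.33%), near the share over all tested genes.

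The median member changed by -0.04 in line 365 and 0.10 in line 167, against medians of -0.00 and -0.02 over all named genes. Higher in both lines were 16 members (34%, against 27.3% of named genes) and lower in both 9 (19.1%, against 30.2%). Most of these members lie below the filter level, where the sign of a small change says little.

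Clade A stayed dim in these cells. Its 14 members were Serpina1c, Serpina1d and Serpina1f of the antitrypsin group, Serpina3a, Serpina3b and Serpina3n of the antichymotrypsin group, the protein C inhibitor Serpina5, the corticosteroid and thyroxine carriers Serpina6 and Serpina7, the coagulation inhibitor Serpina10, and Serpina9, Serpina11, Serpina12 and Serpina16. On every array 12 of the 14 lay below 4.27, and Serpina11 reached 4.27 on 1 array. Hepatocyte markers stand for the tissue that makes most of these proteins. Their log2 signals summed to 34.1 in line 365 and 35.3 in line 167 with Smarcb1, against 33.9 and 35.4 with empty vector. Of these 8 markers, 5 lay below 4.27 on every array, albumin among them. Above it on every array were Apoa1, between 4.81 and 5.03, and Apoa2, with 6.07 and 7.20 with Smarcb1 against 6.09 and 7.62 with empty vector. The exception was Serpina3n, an acute-phase inhibitor, with 3.65 in line 365 and 5.03 in line 167 with Smarcb1, against 4.11 and 4.11 with empty vector.

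Of clade B, 18 members were not tested, and 17 of them lay below 4.27 on every array. They are Serpinb1b, Serpinb1c, Serpinb3a, Serpinb3c, Serpinb3d, the epithelial tumour suppressor Serpinb5 (maspin), Serpinb6c, Serpinb6d, Serpinb6e, Serpinb7, Serpinb9c, Serpinb9d, Serpinb9e, Serpinb10, Serpinb11, Serpinb12 and Serpinb13, with Serpinb2 as the one that reached above it. Their mean changes lay between -0.14 and 0.81. Outside these clades, antithrombin (Serpinc1) and Serpini2 were not tested, with signals between 2.99 and 4.21. Of 5 probe sets shared by several genes of the Serpina1 or Serpinb9 groups, the highest signal was 4.53 and the largest change 0.37.

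Between the tumour lines 2 of the 13 tested members differed past the limma threshold, 1 higher and 1 lower in line 365, against 10.9% of all tested genes (5.31% higher and 5.64% lower). Since the filter let Serpinb6b in through line 365 alone, nothing is read from this count. Serpinb6b had 5.81 with Smarcb1 and 5.72 with empty vector in line 365, against 3.88 and 3.66 in line 167. The lines do not overlap. The difference of log2 2.00 ± 0.15 (moderated SE, limma adjusted p = 0.00600) is 3.99-fold, with line 167 below the filter level on both arrays, so the fold is uncertain. With all named genes tested and no filter, its limma adjusted p was 0.00328. The vascular endothelial cadherin gene Cdh5 moves the same way, at 8.29 and 9.06 in line 365 against 3.64 and 3.78 in line 167, while the other 5 endothelial markers lay at or below 4.80 on every array. Its part in this difference was not tested.

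Serpinf1 had 5.13 with Smarcb1 and 5.51 with empty vector in line 365, against 8.0 and 7.02 in line 167. Both line 167 arrays lay above both line 365 arrays. The difference was -2.19 ± 0.36 (moderated SE, limma adjusted p = 0.0326), with -2.87 within the Smarcb1 arrays and -1.51 within the empty-vector arrays. Without the vector term in the model it did not pass (limma adjusted p = 0.0525). Of the 8 mesenchymal markers, 4 were lower in line 365 past the limma threshold (Col1a2, Col3a1, Pdgfrb and Fn1) and 4 did not pass (Vim, Col1a1, Pdgfra and Thy1). Their log2 signals summed to 60.3 with Smarcb1 and 57.4 with empty vector in line 365, against 81.2 and 69.9 in line 167. Col3a1, which had the largest difference, was at 6.24 and 6.14 against 11.65 and 11.12. Vim was at 13.36 and 13.27 against 13.30 and 13.53. With empty vector, Pdgfra and Thy1 were higher in line 365 by 0.27 and 0.10. The part of these markers in the Serpinf1 value was not tested.

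The remaining 11 tested members did not pass between the lines. Serpinb6a was 0.36 ± 0.11 higher in line 365 (limma adjusted p = 0.109) and Serpinh1 0.48 ± 0.16 higher (adjusted p = 0.127), and both had line 365 arrays above line 167 arrays. Serpinf2 was at -0.54 ± 0.19 (adjusted p = 0.144) and Serpinb8 at -0.84 ± 0.36 (adjusted p = 0.196). Over all 47 members, 4 were higher and 12 lower on both line 365 arrays than on both line 167 arrays, against 23.3% and 26.6% of named genes. As shares of the family these are 8.51% and 25.5%.

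**Figure D3:**
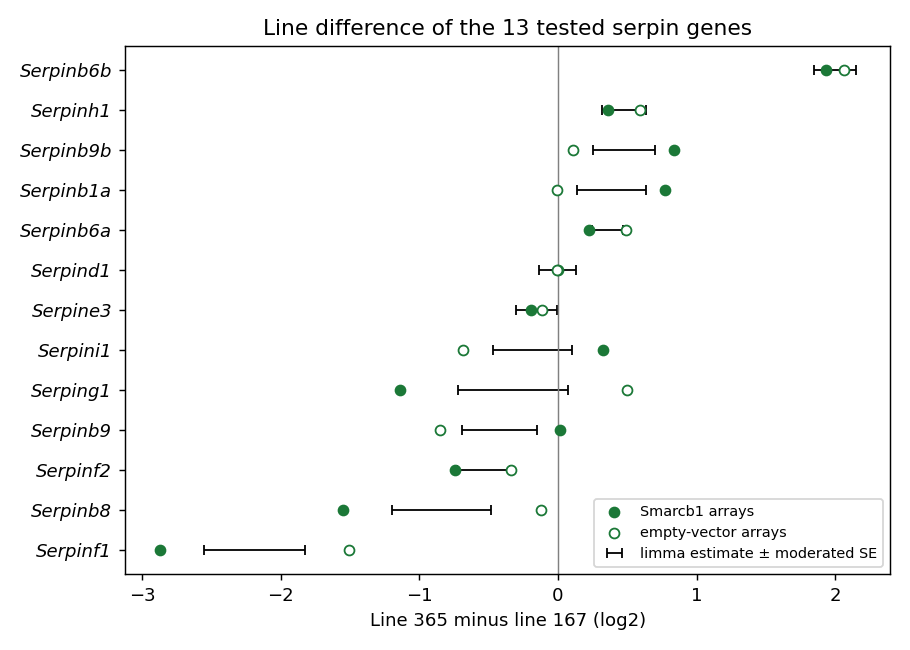
Line 365 minus line 167 (log2) for the 13 tested serpin genes, within the Smarcb1 arrays (filled circles) and within the empty-vector arrays (open circles), with whiskers for the limma estimate ± 1 moderated SE. Serpinb6b lies near 2.00 in both, and Serpinf1 at -2.87 and -1.51.

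Target proteases and partners of serpins were followed as a list of 54 genes, of which 49 are measured here and 37 were tested. With Smarcb1, 0 passed limma's adjusted threshold, and at an unadjusted p below 0.05, 8 were higher (Ctsb, F2r, F3, Lrp2, Lrpap1, Plat, Sdc1 and Vldlr) and 1 lower (Plaur), against 5.88% and 5.68% of tested genes. F3, which encodes tissue factor, the cell-surface starter of coagulation, had 6.0 in line 365 and 6.82 in line 167 with Smarcb1, against 4.51 and 3.97 with empty vector. It was the 1 gene of the 49 at least 2-fold higher in both lines (2.04%, against 0.933% of all named genes). Its mean change was log2 2.17 ± 0.35 (limma adjusted p = 0.145). The line 167 control of F3 lies below the level of 4.27, so the size of the change there is uncertain. F2r, the thrombin receptor, had 10.17 and 9.83 with Smarcb1, against 7.92 and 8.89 with empty vector (adjusted p = 0.214).

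Plat, tissue plasminogen activator and the target of Serpini1, had 9.0 in line 365 and 7.47 in line 167 with Smarcb1, against 8.57 and 5.11 with empty vector (limma adjusted p = 0.387). In line 167 alone, Plat was 5.11-fold higher and Serpini1 1.86-fold lower with Smarcb1, each on 1 array per vector. Hspg2, the heparan sulphate proteoglycan perlecan, had 8.47 and 9.33 with Smarcb1, against 6.17 and 9.28 with empty vector (adjusted p = 0.496). The median change of the 20 tested and 12 untested target proteases was 0.06 in line 365 and 0.05 in line 167. That of the 17 receptors and cofactors, all tested, was 0.54 and 0.11, against -0.00 and -0.02 over all named genes.

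C1ra and C1s1, the complement proteases that Serping1 inhibits, went opposite ways in the lines. C1ra had 4.80 in line 365 and 6.43 in line 167 with Smarcb1, against 6.45 and 5.79 with empty vector. C1s1 had 4.81 and 6.96 with Smarcb1, against 5.88 and 6.02 with empty vector. Both were lower with Smarcb1 in line 365 and higher in line 167, where Serping1 was higher too, and neither passed (limma adjusted p = 0.758 for C1ra and 0.972 for C1s1). These genes were singled out after their values were seen.

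The lines differed in 8 of the 37 tested genes of the list (21.6%, against 10.9% of tested genes), 7 of them higher in line 365. Without the intensity trend, and likewise without the vector term, 4 passed (Ctsl, Lrp8, Plaur and Procr). The calls of Furin, Plat, Sdc4 and Sort1 were lost. Over all 13956 tested genes the calls fell as well, from 1528 to 1209 without the trend and to 653 without the vector term. The endothelial protein C receptor gene Procr had 10.81 with Smarcb1 and 11.02 with empty vector in line 365, against 6.07 and 6.12 in line 167, a difference of 4.82 ± 0.15 (limma adjusted p = 0.00223). The urokinase receptor gene Plaur differed by 2.70 ± 0.16 (adjusted p = 0.00409), with 10.63 and 11.43 in line 365 against 8.16 and 8.49 in line 167. Plat (2.49), the reelin receptor gene Lrp8 (1.58), the sorting receptor gene Sort1 (1.48), the syndecan gene Sdc4 (1.48) and the proprotein convertase gene Furin (0.76) were higher in line 365 as well, with adjusted p between 0.0143 and 0.0466. The lysosomal protease gene Ctsl was lower in line 365, with 10.05 with Smarcb1 and 10.08 with empty vector, against 11.10 and 11.24 in line 167 (-1.10 ± 0.11, limma adjusted p = 0.0106). Lrp8 had 8.12 and 8.64 in line 365 against 6.67 and 6.93 in line 167, Sort1 7.27 and 6.24 against 5.29 and 5.26, and Furin 9.27 and 9.46 against 8.50 and 8.71. For all these genes the arrays of the lines do not overlap. Sdc4 had 11.13 and 11.49 in line 365, against 10.23 and 9.43 in line 167.

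**Figure D4:**
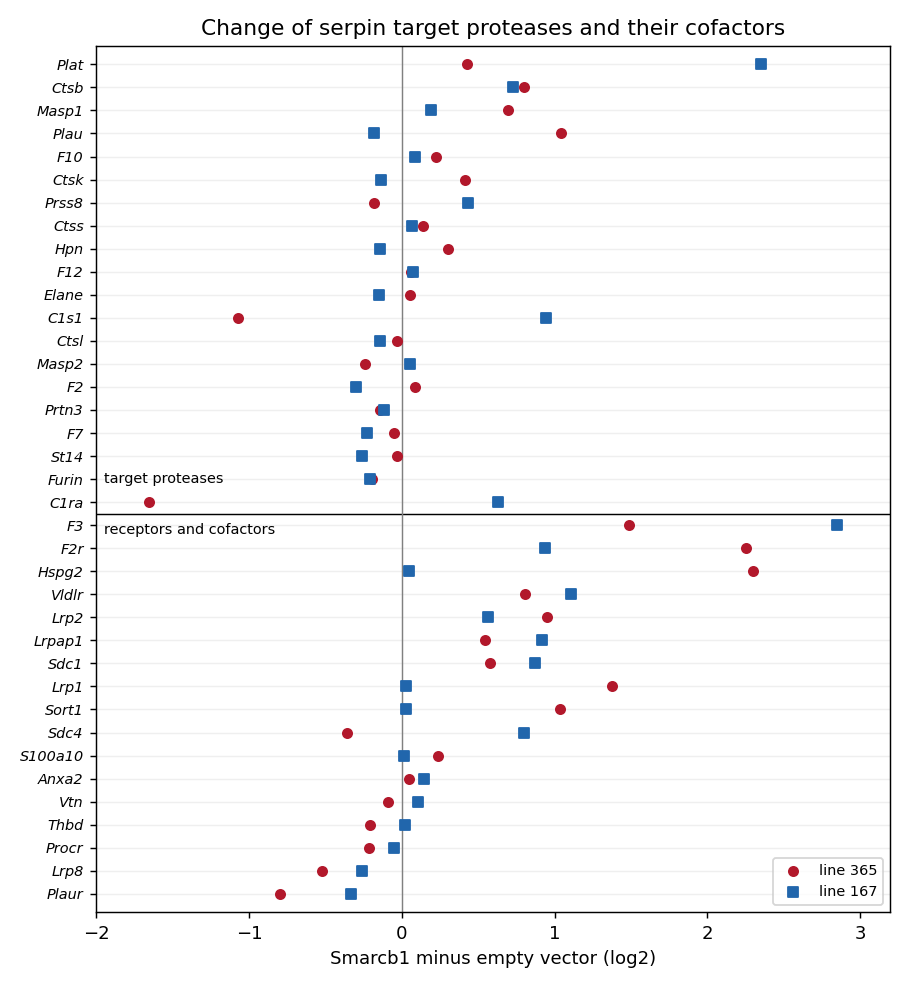
Smarcb1 minus empty vector (log2) in line 365 (circles) and line 167 (squares) for the 37 tested genes of the list, target proteases above the black line and receptors and cofactors under it, ordered by mean change. F3 is at 1.49 in line 365 and 2.85 in line 167, and C1ra at -1.66 and 0.63.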

How the data were processed

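RNA of 2 cell lines with Smarcb1 or empty vector was measured on 4 arrays. The values are log2 RMA signals that the authors deposited, and the submitters' processing notes name RMA and Affymetrix Expression Console. The sources used here state neither settings nor a genome build. RMA equalises the arrays, whose medians lay between 5.03 and 5.07, so a change of total RNA per cell cannot be seen. For arrays, their number limits the precision.

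Probe sets with 1 gene symbol in the platform annotation were kept, with the highest mean per gene. All 47 members were found in the RefSeq table by Entrez identifier, and 0 symbols changed. Of 19938 genes, 13956 had a mean at or above the 30th percentile (log2 4.27) and were tested with limma 3.58.1 (R 4.3.3), using lmFit and trended eBayes. The terms were cell line and vector, and p-values are two-sided with Benjamini-Hochberg adjustment over all tested genes at 0.05. The line pairs the arrays, since both come from the same cells (correlation of deviations 0.770). With 1 residual degree of freedom, each p-value sets an effect against the difference between the lines in response, moderated across genes. A single line has 1 array per vector and no test. The labels name no repeat cultures. The fit was tested on simulated data.

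The members and lists were chosen with earlier results of these data known. All members are accounted for. Values on all arrays are given for Serpinb1a and its paralogs Serpinb1b and Serpinb1c, for members past a threshold or with a mean change or line difference of at least log2 1, for the 5 of highest mean signal, for list genes past a threshold or among the 4 largest changes, and for genes stated to be chosen after their values were seen. Alternatives were other filters, renormalization, no trend, mean probe sets and fewer model terms. Promoters were aligned with Biopython 1.88.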

Additional observations from a re-analysis of the deposited data

Results flagged for a closer look

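Some genes changed by at least 1.25-fold in opposite directions in the lines, with lower signal under Smarcb1 in line 365 and higher signal in line 167. Each line has 1 array per vector, so these differences were not tested. The change in line 365 minus that in line 167 was log2 -1.38 for Serpina3n and -1.36 for Serpinf1 among the serpins. Among their proteases and partners it was -2.29 for C1ra, -2.01 for C1s1 and -1.16 for the syndecan gene Sdc4, which had 11.13 in line 365 and 10.23 in line 167 with Smarcb1, against 11.49 and 9.43 with empty vector. All 5 differences have the same sign, but the share over all named genes was not counted, so nothing is read from this. Groups of 2 arrays allow no check for outlying samples.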

How the results depend on the processing

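The count of genes past the adjusted threshold for Smarcb1 against empty vector moved with the settings from 9 to 68 when all genes were tested, 101 when the upper 50 percent were, 48 after a second quantile normalization and 49 after cyclic loess. It was 0 with no replicate block, that is with the cell line left out of the model. The 1 serpin past it, Serpinb1a, was lost without the intensity trend (0 members) and with no replicate block (0 members). Its call is a description in every setting, since the family was picked on it. With the upper 50 percent tested the count stayed at 1, but that member is Serpinb9b (adjusted p = 0.0383), since Serpinb1a is not tested there. Between the lines, 1528 genes became 653 without the vector term, and the 2 serpins became 1 there (Serpinb6b) and 1 with the stricter filter (Serpinf1), which removes Serpinb6b from the test. The 8 proteases and partners that differed between the lines became 4 without the trend, where the count over all genes was 1209. Without the vector term they became 4 as well. Members at least 2-fold higher in both lines numbered 2, and 1 with the stricter filter, which removes Serpinb1a. Leaving out a line leaves 3 such members in line 365 alone and 4 in line 167 alone, as counts with no test. Of 98 tested alternatives of a named member, 0 changed sign, but most could not. Filters, trend, mean probe sets and model terms leave each estimate as it was, so only the renormalizations could move it. Of 36 values from 1 line or 1 vector alone, which have no test, 7 had the opposite sign to the mean, which in each case had not passed or had not been tested. In line 365 alone the Smarcb1 change was -0.10 for Serpinb1b, -0.38 for Serpinf1 and -0.00 for Serpinh1, against means of 0.21, 0.30 and 0.12. The line difference was -0.31 for Serpinb1b, -0.03 for Serpinb1c and 0.01 for Serpinb9 within Smarcb1 arrays, against means of 0.01, 0.07 and -0.42, and -0.01 for Serpinb1a within empty-vector arrays, against 0.38. Renormalization moved the median change of all genes by under 0.1 on the log2 scale. Probe sets near or below log2 4.27 limit the sizes of changes, among them those of Serpinb1a.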
